A study of Mus musculus with 35 samples.

Results

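Basement membranes are thin sheets of matrix that epithelial cells lay down beneath themselves. Laminin and type IV collagen each form a network there, and nidogens and perlecan link the 2 networks. Type IV collagen chains assemble inside the cell as trimers: Col4a1 with Col4a2 in nearly every basement membrane, Col4a3 with Col4a4 and Col4a5 in a few tissues such as the kidney filter, and Col4a5 with Col4a6 in others. The 10 genes described here are Col4a1, Col4a2, Col4a3, Col4a5, Col4a6, Col18a1, Nid1, Nid2, Hspg2 and Agrn, chosen by name from the 20261 genes of the deposited table.

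The cells were NMuMG, an epithelial line from mouse mammary gland (labelled wild type, strain E9), and TGF-β is known to drive such cells towards a mesenchymal state. They received JNKi, by its name an inhibitor of the kinase JNK whose compound the labels do not name, or DMSO, the usual vehicle for such compounds, and RNA was sequenced at 24, 48, 72 and 96 h and at 7 days, with 2 libraries for each of the 10 groups. The culture protocol given for every sample includes TGF-β at 2 ng/ml, renewed with the medium, and no group without TGF-β was sampled at these times, so effects of TGF-β and of time in culture cannot be told apart. The labels do not say that replicates were separate cultures, and every p value here reflects the scatter between libraries, which may be technical.

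Depth ran from 9.49 to 48.6 M reads per library. Values are the authors' normalized read counts, called normalized reads below. Of 7 epithelial markers, Cdh1, Krt8, Krt18 and Krt19 were at 3711 normalized reads or more in every library, whereas Epcam, Cldn3 and Cldn7 reached at most 12.6. In bulk RNA, fewer cells of a type and less RNA per cell cannot be told apart.

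Col4a1, Col4a2, Col4a3, Col4a5 and Hspg2 rose in both arms by 7 days. The rise of Col4a1, Col4a2 and Hspg2 was smaller with JNKi, while Col4a3 and Col4a5 did not pass the test between the arms. Col18a1 and Agrn were also lower with JNKi at 7 days. Both nidogens and Col4a6 were low throughout, at 71.9 normalized reads or less in every library.

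The start regions of 3 genes that turned out lower with JNKi are printed here because Col4a1 and Col4a2 are transcribed from opposite strands with starts 21 bases apart and overlapping 5′ ends, and Hspg2 followed them across the 10 groups. The sequences are RefSeq's, build GRCm38.p6, each running from 250 bases before to 50 bases after the annotated start on the gene's own strand, and capitals mark matches to the searched motifs. The windows are chr8:11312777-11313076, minus strand, for Col4a1, chr8:11312555-11312854, plus strand, for Col4a2, and chr4:137468553-137468852, plus strand, for Hspg2.
Col4a1: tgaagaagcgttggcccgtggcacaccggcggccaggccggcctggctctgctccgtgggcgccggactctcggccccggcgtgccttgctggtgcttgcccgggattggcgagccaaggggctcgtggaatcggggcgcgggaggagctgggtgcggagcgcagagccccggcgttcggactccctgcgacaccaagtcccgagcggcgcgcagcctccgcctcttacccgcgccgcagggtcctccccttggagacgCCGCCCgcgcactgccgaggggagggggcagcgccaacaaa
Col4a2: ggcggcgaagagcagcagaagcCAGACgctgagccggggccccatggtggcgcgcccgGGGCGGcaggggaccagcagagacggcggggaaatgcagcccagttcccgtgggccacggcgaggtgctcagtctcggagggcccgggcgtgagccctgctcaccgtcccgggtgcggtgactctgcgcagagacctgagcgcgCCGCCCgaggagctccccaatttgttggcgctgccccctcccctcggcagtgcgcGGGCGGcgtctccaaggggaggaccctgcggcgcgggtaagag
Hspg2: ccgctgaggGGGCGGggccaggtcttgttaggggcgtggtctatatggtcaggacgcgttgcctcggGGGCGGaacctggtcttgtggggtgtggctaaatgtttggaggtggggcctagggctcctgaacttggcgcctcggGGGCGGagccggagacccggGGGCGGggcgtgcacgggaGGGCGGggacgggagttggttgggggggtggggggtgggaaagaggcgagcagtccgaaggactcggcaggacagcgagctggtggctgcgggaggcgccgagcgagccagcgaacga
The Col4a1 and Col4a2 windows share 78 bases, read on opposite strands, and hold 74% and 73.7% G and C, against a median of 52.7% over 32851 mouse windows of the same length. The motifs searched, on both strands and counting overlapping matches, were AP-1 (TGANTCA, the site of the JNK target Jun), a SMAD box (CAGAC), a GC box (GGGCGG) and a CTC box (CCCTNCCCC). Windows were found for 8 of the 10 genes, 10 windows in all, and AP-1 had 0 matches in each of them, with a match in 7.81% of all mouse windows. The GC box had 1 match in the Col4a1 window, 3 in the Col4a2 window and 5 in the Hspg2 window, and it occurs in 35.7% of all windows. The Col4a1 match is the same bases as 1 of the Col4a2 matches, in the shared stretch. GC box matches also lay in windows of Col4a5, Col4a6, Nid1, Agrn and Col18a1. The SMAD box had 1 match in the Col4a2 window and 0 in those of Col4a1 and Hspg2, and it occurs in 49.6% of all windows. The CTC box had 0 matches in these 3 windows and occurs in 9.48% of all windows. These are letter matches, and the data hold no measure of factor binding.

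Col4a1 and Col4a2 encode the chains of the common type IV collagen trimer. In JNKi cells Col4a1 had 10502 and 10792 normalized reads (24 h), 21541 and 24598 (48 h), 31596 and 37094 (72 h), 35511 and 35544 (96 h) and 22565 and 25289 (7 days). With DMSO it had 8763 and 10007 normalized reads (24 h), 23918 and 27111 (48 h), 44284 and 51556 (72 h), 53490 and 52432 (96 h) and 44824 and 38706 (7 days). Both arms were lowest at 24 h. The JNKi range lay above the DMSO range at 24 h, overlapped it at 48 h, and lay below it at 72 h, 96 h and 7 days. Ranges here and below span 2 libraries per group, so lying apart is no test. The share of all genes with ranges apart was not counted. Among the 10 groups in order of level, the neighbours whose ranges overlapped were DMSO 72 h with DMSO 7 days, JNKi 96 h with JNKi 72 h, DMSO 48 h with JNKi 7 days, and JNKi 7 days with JNKi 48 h.

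Col4a2 followed the same course at a lower level. In JNKi cells it had 4817 and 5012 normalized reads (24 h), 9862 and 11569 (48 h), 14237 and 16846 (72 h), 17451 and 17826 (96 h) and 11804 and 13253 (7 days). In DMSO cells it had 4145 and 4671 normalized reads (24 h), 11128 and 13151 (48 h), 19537 and 23107 (72 h), 24496 and 25719 (96 h) and 22414 and 18876 (7 days). The 2 arms overlapped at 48 h and were apart at the other times, with JNKi above DMSO at 24 h and below it from 72 h on. The 2 genes' annotated first exons lie head to head and no strand setting is given in the sources used here, so reads at their shared end could fall to either gene.

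The ratio of Col4a1 to Col4a2 reads moved little. It lay between 1.91 and 2.27 in all 20 libraries, with a median of 2.13, which per kilobase of exon is 1.69 to 2.01. At 7 days it was 1.91 in both JNKi libraries, against 2.00 and 2.05 in the DMSO libraries. A trimer of this type holds a pair of Col4a1 chains for each Col4a2 chain, as background.

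**Figure D1:**
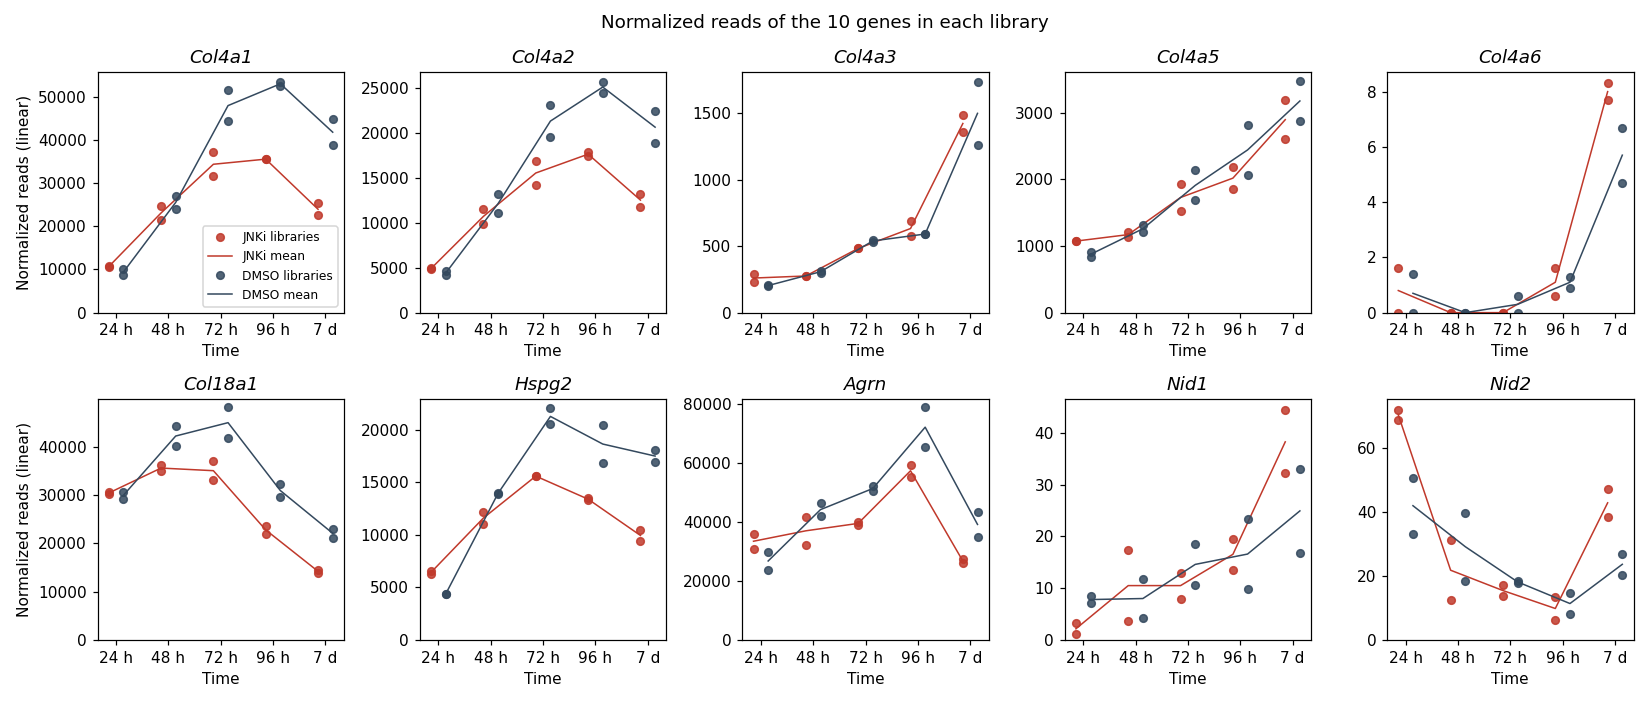
Normalized reads of each gene in every library (vertical axes, 1 panel per gene) at the 5 times (horizontal axis, evenly spaced and not to scale), with points for single libraries and lines through the group means of JNKi and DMSO. Col4a1, Col4a2 and Hspg2 climb in both arms, with JNKi below DMSO from 72 h on for the collagens and from 48 h on for Hspg2, while Nid1, Nid2 and Col4a6 reach at most 71.9 normalized reads.

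Hspg2 encodes perlecan, a very large heparan sulfate proteoglycan that binds laminin, nidogen and type IV collagen. In JNKi cells Hspg2 had 6611 and 6276 normalized reads (24 h), 12231 and 10998 (48 h), 15638 and 15571 (72 h), 13493 and 13324 (96 h) and 9386 and 10515 (7 days). With DMSO it had 4391 and 4377 normalized reads (24 h), 14033 and 13904 (48 h), 20528 and 22056 (72 h), 16870 and 20448 (96 h) and 18101 and 16928 (7 days). The arms were apart at all 5 times: JNKi libraries were the higher ones at 24 h and the lower ones at every later time. With the 10 groups in order of level, the only neighbours with overlapping ranges were DMSO 96 h and DMSO 7 days.

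Agrn encodes agrin, another heparan sulfate proteoglycan, best known for organizing the nerve-muscle synapse and also present in epithelial basement membranes. In JNKi cells it had 35921 and 30865 normalized reads (24 h), 41755 and 32085 (48 h), 39835 and 39024 (72 h), 59273 and 55197 (96 h) and 27242 and 26147 (7 days). In DMSO cells it had 29796 and 23610 normalized reads (24 h), 46282 and 41909 (48 h), 50241 and 52241 (72 h), 78734 and 65250 (96 h) and 43373 and 34787 (7 days). Agrn was highest at 96 h in both arms, and the arms did not overlap at any time, with JNKi above DMSO at 24 h and below it afterwards.

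Col18a1 encodes the core of collagen XVIII, a basement membrane collagen that carries heparan sulfate and releases the fragment endostatin. In JNKi cells Col18a1 had 30149 and 30678 normalized reads (24 h), 36125 and 35043 (48 h), 33130 and 36950 (72 h), 23688 and 21861 (96 h) and 13825 and 14575 (7 days). With DMSO it had 30614 and 29261 normalized reads (24 h), 40152 and 44284 (48 h), 41824 and 48146 (72 h), 32233 and 29606 (96 h) and 23009 and 21147 (7 days). Unlike the type IV chains it was lowest at 7 days in both arms. The arms overlapped at 24 h and were apart later, JNKi below DMSO.

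Col4a3 and Col4a5 belong to the trimer that is typical of the kidney filter. In JNKi cells Col4a3 had 291 and 229 normalized reads (24 h), 273 and 278 (48 h), 482 and 483 (72 h), 691 and 572 (96 h) and 1359 and 1483 (7 days). In DMSO cells Col4a3 had 208 and 199 normalized reads (24 h), 314 and 301 (48 h), 532 and 545 (72 h), 593 and 589 (96 h) and 1732 and 1262 (7 days). Its highest levels came at 7 days in both arms. JNKi lay above DMSO at 24 h and below it at 48 and 72 h, and the arms overlapped at 96 h and 7 days.

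Col4a5 had a similar shape. In JNKi cells it had 1076 and 1072 normalized reads (24 h), 1204 and 1140 (48 h), 1531 and 1927 (72 h), 2188 and 1851 (96 h) and 2601 and 3193 (7 days). In DMSO cells it had 835 and 915 normalized reads (24 h), 1205 and 1314 (48 h), 1684 and 2137 (72 h), 2819 and 2066 (96 h) and 3482 and 2873 (7 days). JNKi lay above DMSO at 24 h and below it at 48 h, and the arms overlapped from 72 h on. Their partner Col4a4, which is not among the 10 genes, had a log2 difference of 1.80 ± 0.17 (SE) between 7 days and 24 h in JNKi cells and of 2.05 ± 0.17 in DMSO cells. Col4a3 and Col4a4 also lie head to head, with the same uncertainty over strand, and Col4a3 had 0.53 to 1.08 times the reads of Col4a4.

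Nid1 and Nid2 encode nidogens, the linkers between laminin and type IV collagen. In JNKi cells Nid1 had 1.1 and 3.2 normalized reads (24 h), 17.3 and 3.7 (48 h), 13 and 8 (72 h), 19.6 and 13.5 (96 h) and 44.4 and 32.2 (7 days). In DMSO cells Nid1 had 8.4 and 7.2 normalized reads (24 h), 11.7 and 4.3 (48 h), 10.7 and 18.5 (72 h), 23.4 and 9.8 (96 h) and 16.8 and 33.1 (7 days). These values rest on 1 to 49 reads per library, and the arms were apart at 24 h only. For scale, 524 receptor genes that averaged under 5 normalized reads summed to 16.5 and 14.8 RPM (reads scaled to library depth) in the JNKi libraries at 7 days, and to 8.71 and 6.94 in the DMSO libraries at 7 days. At 24 h the same genes summed to 1.67 and 1.28 RPM with JNKi, against 1.65 and 1.19 with DMSO. The part of this general rise of near-silent genes in the Nid1 values was not tested.

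Nid2 was at a similarly low level with another course. In JNKi cells it had 68.6 and 71.9 normalized reads (24 h), 31.1 and 12.4 (48 h), 17.1 and 13.7 (72 h), 13.3 and 6.3 (96 h) and 47.1 and 38.5 (7 days). With DMSO it had 50.6 and 33.2 normalized reads (24 h), 39.7 and 18.5 (48 h), 17.7 and 18.5 (72 h), 14.7 and 8.0 (96 h) and 26.9 and 20.3 (7 days). Both arms were lowest at 96 h, and JNKi lay above DMSO at 24 h and 7 days and below it at 72 h. The 7-day values sit beside the same rise of near-silent genes.

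Col4a6 was at 0 to 11 reads per library, and its group means, at most 8.0 normalized reads, did not pass the filter of a mean of 10 in at least 1 group. At 7 days it had 8.3 and 7.7 normalized reads in JNKi libraries, against 6.7 and 4.7 in DMSO libraries. These values also sit beside the rise of near-silent genes, whose part in them was not tested. The other 9 genes passed and were tested.

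The first question was how these genes changed with time in each arm. In JNKi cells at 7 days against 24 h, 6 of the 9 genes were higher and 1 was lower by limma at an adjusted p under 0.05, where 31.7% and 26.3% of 13896 tested genes were called in those directions. In DMSO cells 7 of 9 were higher and 1 was lower, where 32% and 28% of all genes were called. The median log2 change over the 9 genes was 1.17 with JNKi and 1.85 with DMSO, against medians of 0.061 and 0.064 over all genes in the same 2 comparisons.

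In JNKi cells Col4a1 was at 2.24-fold its 24 h level at 7 days (log2 1.17 ± 0.12 SE, limma adjusted p = 6.24e-07) and Col4a2 at 2.55-fold (1.35 ± 0.12, adjusted p = 2.33e-07). In DMSO cells Col4a1 was at 4.45-fold (log2 2.15 ± 0.12 SE, limma adjusted p = 6.46e-10) and Col4a2 at 4.67-fold (2.22 ± 0.12, adjusted p = 6.82e-10). Col4a3 had the largest log2 change of the 9 genes in DMSO cells. It was at 5.49-fold with JNKi (log2 2.46 ± 0.14, limma adjusted p = 2.94e-09) and 7.24-fold with DMSO (2.86 ± 0.14, adjusted p = 2.79e-10). Col4a5 was at 2.68-fold with JNKi and 3.62-fold with DMSO, both past the test.

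Hspg2 was at 1.54-fold with JNKi (log2 0.63 ± 0.092 SE, limma adjusted p = 3.06e-05) and at 3.99-fold with DMSO (2.00 ± 0.092, adjusted p = 1.29e-10). Col18a1 was lower at 7 days in both arms, by a log2 change of -1.10 ± 0.097 with JNKi (limma adjusted p = 2.03e-07) and of -0.44 ± 0.097 with DMSO (adjusted p = 0.00102). Agrn had a log2 difference of -0.32 ± 0.15 with JNKi (limma adjusted p = 0.0724) and rose by 0.55 ± 0.15 with DMSO (adjusted p = 0.00416). The DMSO call for Agrn was lost without the second 24 h library, where the value was 0.38, or without the first 7-day library, where it was 0.39.

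Nid1 was at 13.1-fold in JNKi cells on the log2(value + 1) scale (log2 3.71 ± 0.62 SE, limma adjusted p = 0.000108), against a 24 h level of 1 and 2 reads. From the reads scaled for depth, 62 at 7 days and 3 at 24 h in all, the ratio was 17.5, with an exact 95% interval of 5.72 to 87.2 that covers counting error only. In DMSO cells it was higher by 1.49 ± 0.62 (limma adjusted p = 0.0489). This DMSO call was lost without either 24 h library (1.59 without the first, 1.39 without the second), without the second 7-day library (1.02), with TMM rescaling, with a pseudocount of 0.5, with no filter and without limma's intensity trend. For Nid2 the log2 difference was -0.71 ± 0.45 with JNKi (limma adjusted p = 0.191) and -0.79 ± 0.45 with DMSO (adjusted p = 0.145).

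**Figure D2:**
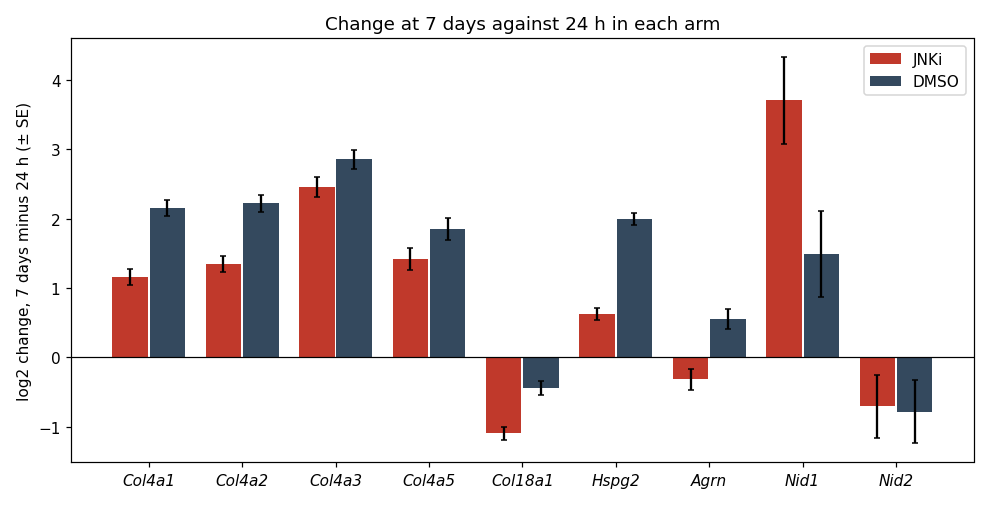
Log2 change at 7 days against 24 h (vertical axis) of each tested gene (horizontal axis), with bars for JNKi and DMSO cells and error bars of 1 SE from the limma fit. Col4a1, Col4a2 and Hspg2 show smaller changes with JNKi (1.17, 1.35 and 0.63) than with DMSO (2.15, 2.22 and 2.00), and Col18a1 lies below 0 in both arms.

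The rise of the collagen chains was already present at 96 h. At 96 h against 24 h, 7 of 9 genes were higher and 2 lower in JNKi cells by limma (30.8% and 29% of all genes), and 6 were higher and 1 lower in DMSO cells (32.7% and 30.5%). Col4a1 had a log2 change of 1.74 ± 0.12 SE with JNKi (limma adjusted p = 6.41e-09) and of 2.50 ± 0.12 with DMSO (adjusted p = 1.54e-10). Nid2 fell by 96 h in both arms, with log2 changes of -2.80 ± 0.45 with JNKi (limma adjusted p = 5.88e-05) and -1.82 ± 0.45 with DMSO (adjusted p = 0.00219).

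Between 96 h and 7 days the genes parted, with changes given on the log2 scale. In JNKi cells 3 of 9 were higher and 5 lower by limma (23.2% and 16.6% of all genes), and in DMSO cells 1 was higher and 3 lower (21% and 15.5%). Col4a3 rose further in both arms, by 1.17 ± 0.14 SE with JNKi (limma adjusted p = 1.69e-05) and by 1.32 ± 0.14 with DMSO (adjusted p = 7.43e-06). Col4a1 fell by 0.57 ± 0.12 with JNKi (limma adjusted p = 0.00116) and by 0.35 ± 0.12 with DMSO (adjusted p = 0.0279), and the DMSO call was lost without the second 7-day library (-0.24), either 96 h library (-0.33 and -0.36), or when only the 2 groups were fitted.

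Over the same interval Hspg2 fell by 0.43 ± 0.092 SE with JNKi (limma adjusted p = 0.00162) and had a difference of -0.085 with DMSO (adjusted p = 0.496), and the difference between the arms over this interval was not tested. Agrn fell in both arms, by 1.10 ± 0.15 with JNKi (limma adjusted p = 4.09e-05) and by 0.88 ± 0.15 with DMSO (adjusted p = 0.000293). Col4a2 fell by 0.50 with JNKi, a call lost without the first JNKi 7-day library (-0.41). Col4a5 rose by 0.52 with JNKi, a call lost without the second JNKi library at 7 days (0.37) or at 96 h (0.40), and Nid2 rose by 2.09 ± 0.45 (limma adjusted p = 0.00186).

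The second question was what the inhibitor did at each time. At 24, 48, 72 and 96 h limma called 0 of the 9 genes (0%, 0%, 0.072% and 0.0072% of all genes). At an unadjusted p under 0.05 the counts were 4, 2, 5 and 5 of 9, where 4.39%, 3.75%, 8.1% and 4.87% of all genes had such a p. edgeR on recovered reads called 0 at each of these times. DESeq2 called 1, 0, 4 and 4 of the 9, and 1, 2, 105 and 34 of all genes. A replicate block within each time also called some of the 9 at 24, 72 and 96 h, as given below with the other settings. The gene nearest the threshold at 24 h was Hspg2, with a log2 difference of 0.56 ± 0.092 SE (limma adjusted p = 0.0505), and it passed with TMM rescaling, robust variances, a pseudocount of 0.5 or DESeq2.

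At 72 h the log2 difference of Hspg2 was -0.45 (95% interval -0.64 to -0.25, limma adjusted p = 0.0788) and that of Col4a1 was -0.48 (-0.73 to -0.24, adjusted p = 0.175). At 96 h the differences were -0.47 for Hspg2 and -0.58 for Col4a1, both with an adjusted p of 0.194. The 4 genes that DESeq2 called at each of these 2 times were Col4a1, Col4a2, Hspg2 and Col18a1.

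At 7 days 5 of the 9 genes were lower with JNKi and 0 were higher by limma, where 5.33% and 4.84% of all genes were called in those directions. The median log2 difference over the 9 was -0.54, against 0.022 over all genes. Hspg2 averaged 9951 ± 799 normalized reads in JNKi cells and 17514 ± 829 in DMSO cells (SD, n = 2 libraries each). Its log2 difference was -0.82 ± 0.092 SE (limma adjusted p = 6.32e-05).

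Col4a1 averaged 23927 ± 1927 normalized reads in JNKi cells and 41765 ± 4326 in DMSO cells (SD, n = 2 each), a log2 difference of -0.80 ± 0.12 SE (limma adjusted p = 0.000593 over all genes). Col4a2 differed by -0.72 ± 0.12 (limma adjusted p = 0.00162) and Col18a1 by -0.64 ± 0.097 (adjusted p = 0.000836). These 4 calls were kept without any 1 library. Agrn differed by -0.54 ± 0.15 (limma adjusted p = 0.0276), a call lost without the first DMSO library (-0.38), without either JNKi library (-0.57 and -0.51), or without limma's trend.

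Col4a3 and Col4a5 did not pass at 7 days. The log2 difference was -0.059 for Col4a3 (95% interval -0.36 to 0.24) and -0.13 for Col4a5 (-0.47 to 0.20). Col4a4 had -0.065 ± 0.17 SE. Nid1 had a difference of 0.66 (95% interval -0.66 to 1.97) and Nid2 of 0.84 (-0.12 to 1.80).

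**Figure D3:**
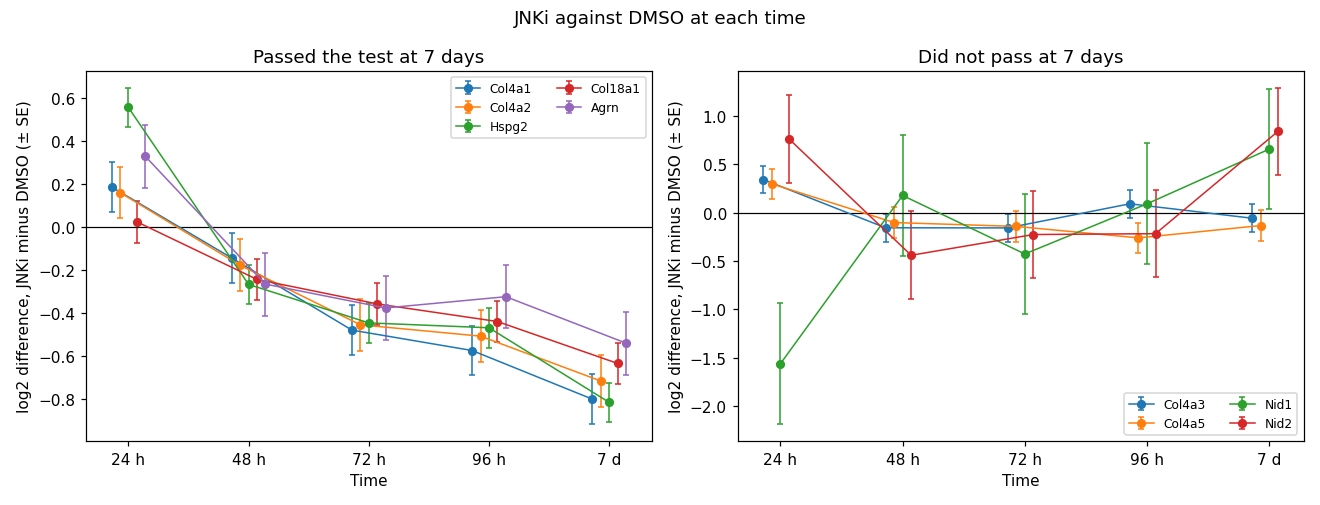
Log2 difference, JNKi minus DMSO, for each tested gene (vertical axes, left panel for genes past the test at 7 days, right panel for the others) at the 5 times (horizontal axis, evenly spaced and not to scale), with error bars of 1 SE from the limma fit. Hspg2 lies at 0.56 at 24 h and at -0.82 at 7 days, and Col4a3 and Col4a5 lie at -0.059 and -0.13 at 7 days.

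Whether the JNKi effect itself changed with time was tested as the effect at 7 days minus that at 24 h. In this test 5 of 9 genes were lower and 0 higher by limma, where 1.3% and 0.799% of all genes were called. For Hspg2 the change in effect was -1.37 ± 0.13 SE (limma adjusted p = 0.00012), with JNKi above DMSO at 24 h and below it at 7 days. For Col4a1 it was -0.99 ± 0.16 (limma adjusted p = 0.00581). Both calls were kept without any 1 library.

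For Col4a2 it was -0.88 ± 0.17 (limma adjusted p = 0.0152), a call lost without the first 7-day library of DMSO (-0.75) or of JNKi (-0.79). For Agrn it was -0.87 ± 0.21 (limma adjusted p = 0.0383), and for Col18a1 -0.66 ± 0.14 (adjusted p = 0.022). Both of these were lost without the second DMSO 24 h library (-0.70 and -0.63, Agrn first), the first DMSO 7-day library (-0.71 and -0.60), the first JNKi 24 h library (-0.76 and -0.67), or the first (-0.90 and -0.62) or second (-0.84 and -0.70) JNKi 7-day library. With only the groups compared in the fit, both calls were lost (adjusted p of 0.10 for Agrn and 0.074 for Col18a1). Agrn's was also lost with no filter or without limma's trend, and that of Col4a2 without the trend. Col4a3 had a change in effect of -0.40 (95% interval -0.83 to 0.026) and Col4a5 of -0.43 (-0.90 to 0.038), and neither passed.

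Averaged over the 5 times, 5 of 9 genes were lower with JNKi and 0 higher by limma, where 2.32% and 2.45% of all genes were called. Col18a1 differed by -0.33 ± 0.043 SE (limma adjusted p = 0.000411), Hspg2 by -0.29, Col4a1 by -0.36 and Col4a2 by -0.34. Agrn differed by -0.24 (limma adjusted p = 0.0487). The call did not hold in 15 of the 20 fits that left out 1 library each, with values from -0.27 to -0.20 over all 20, nor with upper quartile scaling, with no filter or without limma's trend.

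The make-up of type IV collagen transcripts differed between times and arms, with no test made. Per kilobase of exon, in GENCODE M21 gene models on GRCm38 rather than on the mm9 build used for counting, Col4a1 and Col4a2 made up 87.9% of all type IV chain transcripts in JNKi cells at 7 days and 92.0% in DMSO cells. Col4a3, Col4a4 and Col4a5 together made up 12.1% in JNKi cells and 8.01% in DMSO cells. At 96 h that share was 5.61% with JNKi and 4.36% with DMSO, and at 24 h it was 9.34% with JNKi and 8.71% with DMSO. At 7 days the share was thus above its 24 h value in JNKi cells and slightly below it in DMSO cells.

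Within single libraries, Col4a3 reads were 1.06% to 6.02% of Col4a1 reads, and Col4a5 reads were 3.80% to 12.6%. At 7 days Col4a3 was at 6.02% and 5.86% of Col4a1 in JNKi libraries, against 3.86% and 3.26% in DMSO libraries. Col4a5 was at 11.5% and 12.6% in JNKi libraries, against 7.77% and 7.42% in DMSO libraries. Both ratios were higher in every JNKi library than in any DMSO library at that time. Differences between genes in their response were not tested.

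**Figure D4:**
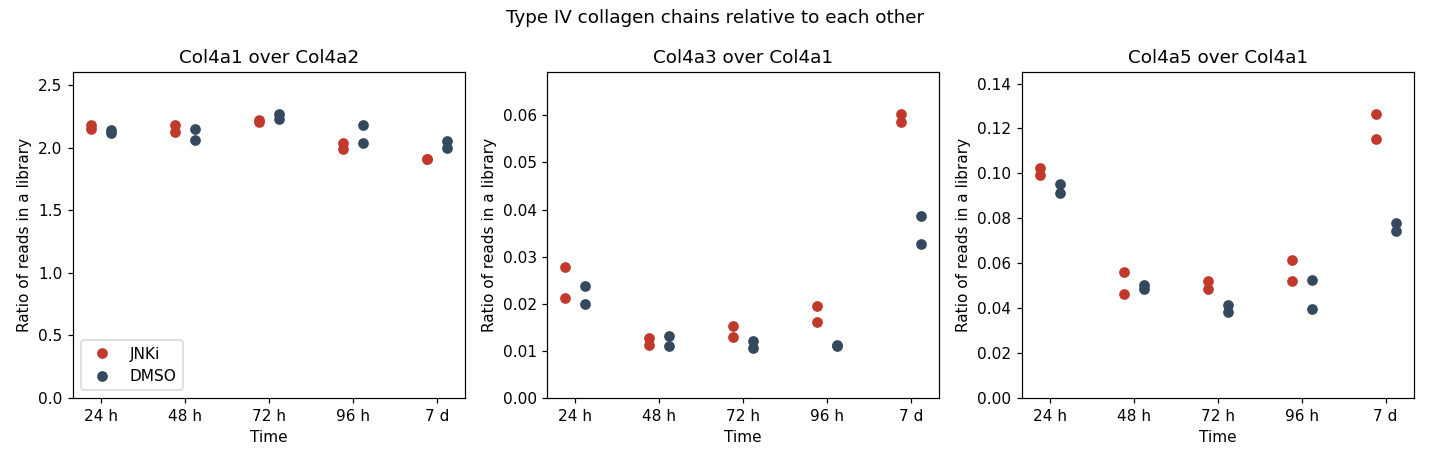
Ratio of reads within each library for pairs of type IV collagen chains (vertical axes, 1 panel per pair) at the 5 times (horizontal axis, evenly spaced and not to scale), as points for JNKi and DMSO libraries. Col4a1 over Col4a2 stays between 1.91 and 2.27, whereas the ratios of Col4a3 and Col4a5 to Col4a1 are lowest at 48 to 96 h and higher at 7 days.

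Levels are comparable between genes per kilobase only. At 7 days in JNKi cells, Col4a1 had 3206 normalized reads per kilobase, Agrn 2875, Col18a1 2022, Col4a2 1893, Hspg2 696, Col4a5 431 and Col4a3 143. In DMSO cells at 7 days, the values per kilobase were 5595 for Col4a1, 4209 for Agrn, 3145 for Col18a1, 3119 for Col4a2, 1224 for Hspg2, 473 for Col4a5 and 150 for Col4a3. The order was the same in both arms, and Nid1 and Nid2 were under 9 normalized reads per kilobase in both.

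Other genes of the basement membrane were read in lists. Of 9 tested laminin chains, the partners of the nidogens, 5 were higher and 3 lower at 7 days against 24 h in JNKi cells by limma (31.7% and 26.3% of all genes), and 7 higher and 2 lower in DMSO cells (32% and 28%), with median log2 changes of 0.56 and 0.94, JNKi first, against 0.061 and 0.064 over all genes. With JNKi against DMSO at 7 days, 0 were higher and 3 lower (4.84% and 5.33% of all genes, which also stand behind the lists that follow), Lamb2 by -0.60 ± 0.12 SE and Lamc1 by -0.58 ± 0.12. Lama5, an alpha chain, had -0.11 ± 0.090. The median log2 difference over the 9 chains was -0.11, against 0.022 over all genes.

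Among 14 tested genes for collagen IV modification, folding and cross-linking, 0 were higher and 5 lower with JNKi at 7 days (4.84% and 5.33% of all genes), with a median of -0.21 against 0.022 over all genes. Pxdn, the peroxidase that cross-links type IV collagen, differed by -0.80 ± 0.13 SE, and Plod2, a lysyl hydroxylase, by -0.62 ± 0.14. At 7 days against 24 h, 6 of the 14 were higher and 3 lower in JNKi cells (median 0.23), and 10 were higher and 0 lower in DMSO cells (median 0.63). Serpinh1, the collagen chaperone, was at 22.0 normalized reads in JNKi cells and 24.1 in DMSO cells at 7 days.

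Of 15 tested receptors for the basement membrane, 0 were higher and 2 lower with JNKi at 7 days: Itgb1, the shared integrin beta chain, by -0.64 ± 0.10 SE, and Sdc1, a syndecan, by -0.55 ± 0.12. Of 21 other basement membrane components, 0 were higher and 3 lower, among them Fbln2, a fibulin that binds nidogen and perlecan, by -0.80 ± 0.14 and Sparc, a collagen-binding glycoprotein, by -0.66 ± 0.13. The median over the 15 receptors was 0.12 and over the 21 components 0.13, against 0.022 over all genes.

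Among 13 tested proteases and inhibitors, 1 was higher and 3 lower with JNKi at 7 days (4.84% and 5.33% of all genes), with a median of -0.037. Mmp3, a protease that can cut several basement membrane proteins, averaged 33.1 normalized reads in JNKi and 2.7 in DMSO cells. Its DMSO libraries at 7 days had 0 to 5.4 normalized reads. These low Mmp3 values sit beside the rise of near-silent genes described for Nid1, whose part in them was not tested. Timp1, an inhibitor, differed by -0.43 ± 0.091 SE. Of 14 genes for heparan sulfate synthesis, which build the chains that perlecan, agrin and collagen XVIII carry, 0 were higher and 3 lower, among them Glce by -0.74 ± 0.16 and Ndst1 by -0.44 ± 0.096. The median over these 14 was -0.15.

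The same lists were read at 7 days against 24 h by limma, with medians on the log2 scale. Over all genes, 31.7% were higher and 26.3% lower in JNKi cells, and 32% higher and 28% lower in DMSO cells. Of the 15 receptors, 6 were higher and 6 lower in JNKi cells (median -0.023), and 4 were higher and 3 lower in DMSO cells (median 0.19), shares near those of all genes in DMSO cells. Of the 21 other components, 11 were higher and 3 lower in JNKi cells (median 0.75), and 13 were higher and 4 lower in DMSO cells (median 0.82). Of the 13 proteases and inhibitors, 10 were higher and 0 lower in JNKi cells (median 0.85), and 8 were higher and 0 lower in DMSO cells (median 1.21). Among them Mmp9, a protease that cuts type IV collagen, averaged 1286 ± 156 normalized reads in JNKi cells at 7 days and 41.2 ± 8.6 at 24 h (SD, n = 2 each). In DMSO cells Mmp9 averaged 694 ± 182 normalized reads at 7 days and 38.4 ± 0.71 at 24 h. Of the 14 heparan sulfate genes, 6 were higher and 1 lower in JNKi cells (median 0.057), and 8 were higher and 1 lower in DMSO cells (median 0.29).

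Markers of other cell types moved with some of these comparisons. The 8 endothelial markers, a cell type known to make type IV collagen, summed to 832 to 837 normalized reads in JNKi and 748 to 835 in DMSO libraries at 7 days, against 503 to 504 with JNKi and 469 to 544 with DMSO at 24 h. Cdh5 averaged 359 normalized reads with JNKi and 288 with DMSO at 7 days, against 65.8 with JNKi and 73.1 with DMSO at 24 h, a log2 change of 1.99 ± 0.22 SE in DMSO cells (limma adjusted p = 1.16e-06). Vwf averaged 142 with JNKi and 77.6 with DMSO at 7 days, against 6.9 and 2.8 at 24 h, JNKi first. Flt1 had a log2 difference of -0.49 ± 0.12 with JNKi against DMSO at 7 days (limma adjusted p = 0.0208). Pecam1, Kdr, Tek, Tie1 and Emcn reached at most 26.6, 24.5, 9.8, 9.1 and 3.5 normalized reads in any library. The 8 fibroblast markers summed to 1802 to 2047 with JNKi and 1859 to 1993 with DMSO at 7 days, against 685 to 725 with JNKi and 738 to 755 with DMSO at 24 h, and most of this was Col1a1. Pdgfrb averaged 279 with JNKi and 310 with DMSO at 7 days, against 134 with JNKi and 130 with DMSO at 24 h, a log2 change of 1.26 ± 0.23 SE in DMSO cells (limma adjusted p = 0.000204). Col3a1 averaged 23.8 with JNKi and 8.4 with DMSO at 7 days, and at most 1.4 in either arm at 24 h. Its log2 difference between the arms at 7 days was 1.20 ± 0.65 SE (limma adjusted p = 0.254). Col1a2, Dcn, Lum and Thy1 reached at most 8.3 in any library. The low markers of both cell types at 7 days sit beside the rise of near-silent genes described for Nid1, whose part in them was not tested.

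The 7 leukocyte markers summed to 2230 to 2393 with JNKi and 1797 to 1880 with DMSO at 7 days, most of it Cd14 and Csf1r. At 24 h they summed to 2089 to 2443 with JNKi and 2080 to 2371 with DMSO. Cd14 averaged 1185 with JNKi and 745 with DMSO at 7 days, a log2 difference of 0.67 ± 0.17 SE (limma adjusted p = 0.0233), and Csf1r 792 with JNKi and 839 with DMSO. Cd68 averaged 285 with JNKi and 229 with DMSO, Itgam reached at most 30.5 in any library, and Ptprc and Cd3e at most 17.5 and 2.0. The 4 muscle and nerve markers summed to 128 to 160 with JNKi and 120 to 158 with DMSO at 7 days. At 24 h their sums were 35.2 to 41.6 with JNKi and 30.2 to 52 with DMSO. Of the study's own states, the 7 epithelial markers summed to 98704 to 105790 with JNKi and 131060 to 166270 with DMSO at 7 days, and the 6 mesenchymal markers to 255380 to 271100 with JNKi and 465890 to 519860 with DMSO. At 24 h the epithelial sums were 333940 to 376910 with JNKi and 328360 to 346070 with DMSO. The mesenchymal sums at 24 h were 204040 to 237560 with JNKi and 213800 to 232300 with DMSO. The part of these shifts in the JNKi differences of the basement membrane genes, or in their changes with time, was not tested.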

How the data were processed

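The submitters' processing notes name TopHat, HTSeq, DESeq and mouse build mm9, without versions. The strand setting is not given in the sources used here. For 20 libraries the authors deposited normalized read counts, a signal per gene. Each library's values were whole multiples of 1 step (100% within 0.1), which gave the reads back. The 15 time-course samples of the series were not analysed here.

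The genes and lists were chosen with earlier results of these data known. The log2 of the deposited signal plus a pseudocount of 1 was fitted in limma 3.58.1 (R 4.3.3, intensity trend, 1 mean per group, all 20 libraries) for the 13896 genes that averaged 10 or more in a group. Tests were two-sided with Benjamini-Hochberg adjustment over those genes at 0.05. Fold changes on this scale understate changes of low genes. All 10 genes were named. Genes named from each list were among the 2 with the largest change that passed and the 2 with the highest mean. Some of these were not named above. Among highest-mean genes left out, log2 differences with JNKi at 7 days were 0.27 for Itga3, 0.26 for Ext1 and 0.10 for Lamb3. They were -0.18 for P4hb, -0.11 for Glt25d1, -0.26 for Ctsl and -0.43 for Timp2, and only that of Timp2 passed. Recovered reads were also fitted with edgeR 4.0.16 and DESeq2 1.42.0 as alternatives. The scripts were tested on simulated data. The level of 1 marker gene is not reported here. Same-numbered replicates were not treated as pairs, since the labels do not pair them. Their deviations correlated between the arms at 0.53 to 0.73 from 24 to 96 h but at 0.072 at 7 days.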

Additional observations from a re-analysis of the deposited data

Results flagged for a closer look

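Below are the genes whose difference between JNKi and DMSO at 7 days itself differed from that at 24 h, by limma's test of the difference. That difference was -1.37 on the log2 scale for Hspg2, -0.99 for Col4a1, -0.88 for Col4a2, -0.87 for Agrn and -0.66 for Col18a1.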

How the results depend on the processing

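With 2 libraries per group, 9.49 to 48.6 M reads and 1 to 61 reads for the nidogens, small changes and most nidogen changes could not be resolved. Of 2093 log2 values of the 9 genes recomputed under alternatives, 27 changed sign, 55 lost and 35 gained their call. The causes were not tested.

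Counts of the 9 genes called for JNKi against DMSO were, at 24 h, 1 with DESeq2, TMM, robust variances or a pseudocount of 0.5, and, at 72 and 96 h, 4 each with DESeq2. For the change in effect between 24 h and 7 days it was 3 when only the groups compared were fitted, and 2 to 5 without 1 library, against 5, with the lowest without the first 7-day library of JNKi or of DMSO. Without limma's trend the count for the change in effect was also 3. Over all genes, calls at 24 h were 1 with DESeq2 and 3 without limma's trend. They were 5 with TMM or robust variances, 6 with a pseudocount of 0.5, and at 48 h 2 with DESeq2. At 72 h they were 105 with DESeq2, 2 without limma's trend and 0 with only the groups compared, against 10. At 96 h they were 34 with DESeq2, against 1. Calls at 96 h were 0 without limma's trend, with no filter, only the groups compared, a pseudocount of 8 or upper quartile scaling. For the change in effect they were 512 with DESeq2, 138 without limma's trend and 89 with only the groups compared, against 292.

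The labels do not say that same-numbered replicates belong together. The correlation between arms of replicate differences was 0.73, 0.59, 0.72 and 0.53 at 24 to 96 h, and 0.072 at 7 days, so the pairing did not hold at every time. A replicate block within each time called 1, 0, 5, 4 and 6 of the 9 genes from 24 h to 7 days, and 19, 15, 334, 99 and 3522 of all genes. The same block called 2198 genes for the mean over times and 1741 for the change in effect. A replicate block with the number as 1 term called 0 genes at 96 h and 457 for the change in effect.

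Without 1 library in turn, calls over all genes ranged from 0 to 13 at 24 h, 0 to 4 at 48 h, 0 to 16 at 72 h, 0 at 96 h, 368 (without the first JNKi 7-day library) to 1519 at 7 days, 393 to 754 for the mean and 59 to 558 for the change in effect. For 7 days against 96 h they ranged from 3340 to 3931 with JNKi and from 2605 to 4635 with DMSO. Signs that changed without 1 library all belonged to values past no test. For JNKi against DMSO at 24 h, Col18a1 ranged from -0.0095 to 0.056. At 48 h Nid1 ranged from -0.80 to 1.16 and Nid2 from -1.07 to 0.19, and at 72 h Col4a5 from -0.31 to 0.028. At 96 h Col4a3 ranged from -0.046 to 0.23, Nid1 from -0.50 to 0.68 and Nid2 from -0.70 to 0.27, and Nid1 was -0.019 with DESeq2 and -0.042 with edgeR. At 7 days Col4a3 ranged from -0.29 to 0.17 and Col4a5 from -0.28 to 0.014. Col4a3 ranged from -0.034 to 0.057 in the mean, and Nid2 from -0.22 to 0.37 in the change in effect. With DMSO, Hspg2 ranged from -0.22 to 0.053 for 7 days against 96 h and Col18a1 from -0.016 to 0.11 for 96 h against 24 h. Upper quartile scaling moved the median of all genes to between 0.13 and 0.14 in the comparisons against 24 h.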

Other observations

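Across the 10 group means of log2 normalized reads, the 5 genes whose course was most like that of Col4a1, among 9598 genes left after taking out the described ones, were Inpp5a, with Pearson's r of 0.988, Aplp2, with 0.986, Trio, with 0.985, and Pkd1 and Klhl26, with 0.983 each. Among the described genes, Col4a1 had r of 0.997 with Col4a2 and 0.969 with Hspg2, and Col4a3 had r of 0.969 with Col4a5. For Nid2 the most like was 1200009I06Rik, with r of 0.969, followed by Nacc2 at 0.961 and Gstp1 at 0.960. These are descriptions over 10 groups, in which both genes of a pair come from the same libraries and share their depth.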
